A study of Mus musculus with 6 samples.

Results

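The gene set described here holds 9 genes that in mice are expressed mainly or partly by neutrophils: 6 cell surface receptors (Fpr1, Fpr2, Trem1, Trem3, Mrgpra2b and Hcar2) and 3 other products (Slfn4, Stfa2l1 and Retnlg). The members were chosen by name with earlier results of these data known, so counts of members are a description. All 9 were found among the 15454 genes with counts and among the 21948 genes with FPKM. All 9 also passed the filter on low counts, which kept 12411 genes. Trem3 and Mrgpra2b, each with 0 counts in 1 I/R+Rk2 liver, passed it through the I/R livers, where they were higher. RNA was sequenced from liver tissue of 6 male C57BL/6 mice aged 8 to 10 weeks. All 6 mice had undergone warm ischemia of 75% of the liver followed by reperfusion (I/R). Of these, 3 had received vehicle (the I/R group) and 3 had received ginsenoside Rk2, a saponin from ginseng, dissolved in vehicle (the I/R+Rk2 group), first 2 days before the operation and again at reperfusion. The labels name no dose, although the study describes the sequenced treated livers as those of its high-dose arm. The sample titles name liver and not the lobe, so the part of the liver sampled is not known here. Sham-operated livers were not analysed here, so every value compares injured livers with injured livers.

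Neutrophils are the first blood leukocytes to enter the liver after reperfusion. They find damaged tissue through receptors that sense formylated peptides from bacteria and mitochondria, chemokines and lipid mediators, and receptors of the triggering receptor expressed on myeloid cells (TREM) family then amplify the response. Several members are not confined to neutrophils: Fpr2, Trem1, Hcar2 and Slfn4 are also expressed by monocytes or macrophages, and Hcar2 by adipocytes.

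The libraries held 16809613 to 35618074 counts. Values are given as counts, as counts per 1000000 of the library size scaled by the trimmed mean of M values (CPM), and as FPKM (fragments per 1000 bases of transcript and 1000000 mapped fragments) where levels of different genes are compared. Past the threshold means more than a 2-fold change together with an edgeR adjusted p under 0.05. The hepatocyte gene Alb stood at 49204 ± 4364 CPM (SD, n = 3) in the I/R livers. In the I/R+Rk2 livers it stood at 80088 ± 9998 CPM (log2 fold change 0.70, I/R+Rk2 over I/R, edgeR adjusted p = 0.0167). Neutrophil markers were present as well. The calprotectin genes S100a8 and S100a9 stood at 150 ± 24.3 and 202 ± 22.9 CPM in the I/R livers, and Ly6g, the surface antigen that defines mouse neutrophils, stood at 1.31 ± 0.241 CPM. Of the genes typical of neutrophil precursors, Mpo, Ctsg and Camp were listed at 0 FPKM in all 6 livers and Elane had counts in a single liver, whereas Prtn3 and Ngp had counts in all 6.

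Of the 9 members, 8 were past the threshold and lower in the I/R+Rk2 livers, where 11.4% of all genes tested were, and none was past it in the other direction, where 3.17% of all genes were. The same 8 genes had every I/R liver above every I/R+Rk2 liver, a pattern held by 30.3% of all genes tested. By the adjusted p alone the members' counts were again 8 lower and 0 higher, beside 23.7% and 20.3% of all genes. The median log2 fold change of the members, I/R+Rk2 over I/R, was -2.79, beside -0.01 for all genes tested. Retnlg was the member that did not pass. In bulk liver RNA, fewer neutrophils and less of these RNAs per neutrophil cannot be told apart. S100a8 and S100a9 fell as well, with log2 fold changes of -2.03 and -2.04 (edgeR adjusted p = 0.00425 and 0.00146).

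**Figure D1:**
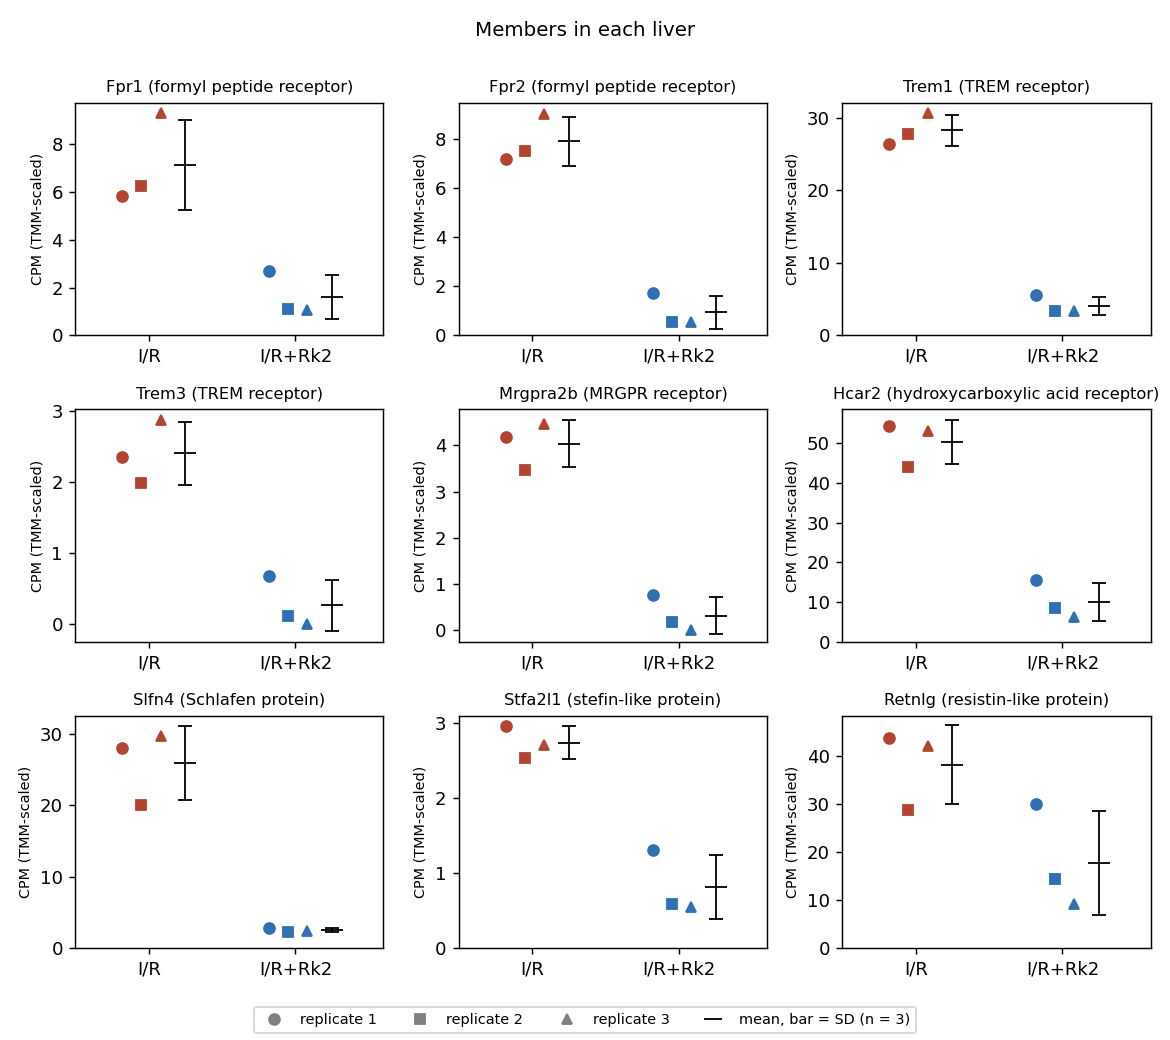
CPM (vertical axis) of the 9 members in each of the 3 I/R and 3 I/R+Rk2 livers, with symbols for the replicate number and a bar for the mean and SD of each group. For 8 genes the groups are separate, whereas for Retnlg the highest I/R+Rk2 liver (29.96 CPM) lies above the lowest I/R liver (28.8 CPM).

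Fpr1 and Fpr2 are G protein-coupled receptors for formylated peptides. Fpr1 is the high-affinity receptor, whereas Fpr2 also binds serum amyloid A and annexin A1. In the GENCODE M21 annotation of GRCm38, Fpr1 lies on the minus strand of chromosome 17 (17876471 to 17883940) and Fpr2 on the plus strand beside it (17887824 to 17893952), so that their 5' ends face each other. Their upstream sequences are shown because the genes are neighbours and both fell. Each is the 250 bases before the RefSeq start in GRCm38.p6, read 5' to 3' on the gene's own strand, at chr17:17883940-17884189 (minus strand) for Fpr1 and chr17:17887574-17887823 (plus strand) for Fpr2. Capitals mark matches to TTNNGNAA, a core of sites for C/EBP factors of the granulocyte lineage, on either strand, and to TATAAA on either strand. A further TTNNGNAA match of Fpr2 runs past its start and is not in capitals.
Fpr1: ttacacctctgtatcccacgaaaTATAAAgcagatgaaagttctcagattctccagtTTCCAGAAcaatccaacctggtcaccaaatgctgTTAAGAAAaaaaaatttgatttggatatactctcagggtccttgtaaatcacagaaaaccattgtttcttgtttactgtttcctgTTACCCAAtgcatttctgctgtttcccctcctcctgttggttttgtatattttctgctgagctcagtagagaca
Fpr2: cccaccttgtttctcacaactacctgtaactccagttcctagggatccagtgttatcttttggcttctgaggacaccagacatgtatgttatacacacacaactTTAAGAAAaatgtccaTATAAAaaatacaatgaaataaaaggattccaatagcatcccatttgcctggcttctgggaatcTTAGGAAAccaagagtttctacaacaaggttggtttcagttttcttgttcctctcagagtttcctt

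Fpr1 had 112, 160 and 233 counts in I/R replicates 1 to 3 and 64, 37 and 17 in I/R+Rk2 replicates 1 to 3. As CPM these were 5.84, 6.24 and 9.28 among the I/R livers and 2.69, 1.09 and 1.04 among the I/R+Rk2 livers. The groups did not overlap, and I/R+Rk2 replicate 1 stood apart from the other two livers of its group. The mean went from 7.12 ± 1.88 to 1.61 ± 0.936 CPM (SD, n = 3 per group), a 4.40-fold decrease (log2 fold change -2.14, SE 0.395, edgeR adjusted p = 0.00530).

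Fpr2 had 138, 193 and 227 counts among the I/R livers and 41, 19 and 9 among the I/R+Rk2 livers, or 7.19, 7.53 and 9.04 CPM against 1.72, 0.562 and 0.552 CPM. The lowest I/R liver was above the highest I/R+Rk2 liver by a wide margin. The mean fell 8.32-fold, from 7.92 ± 0.987 to 0.946 ± 0.673 CPM (log2 fold change -3.06, SE 0.418, edgeR adjusted p = 0.00182). On the FPKM scale, Fpr2 was above Fpr1 in every I/R liver, with ratios of 1.58, 1.62 and 1.24, and below it in every I/R+Rk2 liver, with ratios of 0.855, 0.701 and 0.647. The order of the receptors was thus opposite in the groups. By an exact two-sided permutation test the difference in the ratio gave p = 0.1, the smallest value that 3 livers against 3 allow, and 0.13 after Benjamini-Hochberg adjustment over the 13 ratios compared. Fpr2 shared 31.5% of its distinct 50-base transcript stretches with Fpr1, Fpr3 or Gm5966, so reads from these copies can be divided between them. Fpr3 had 2, 5 and 5 counts among the I/R livers and none in the I/R+Rk2 livers, too few to be tested. With the counts of Fpr2 and Fpr3 summed, an alternative chosen after seeing the data, the log2 fold change was -3.09.

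Among 22 ligands and signalling partners of the formyl peptide receptors, 21 were tested, 16 were past the threshold and lower, and none was past it and higher (median log2 fold change -2.19). Over all genes tested 11.4% were past it and lower and 3.17% past it and higher, which are the shares beside every list below. This list and those below were chosen with earlier results of these data known. Saa2, an acute-phase ligand made by hepatocytes, fell by 3.31 on the log2 scale (edgeR adjusted p = 0.000450). Cyba, which encodes a membrane subunit of the NADPH oxidase that the receptors activate, had a log2 fold change of -1.71 (adjusted p = 0.000458). Anxa1, the annexin A1 gene, fell by 1.72. The G protein subunits that most cells express moved less, with log2 fold changes of -0.26 for Gnai2, -0.26 for Gnai3 and 0.31 for Gnb2, of which Gnai2 alone had an adjusted p below 0.05 (0.0360).

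Trem1 and Trem3 are immunoglobulin-like receptors that signal through the adaptor DAP12, the product of Tyrobp. They are neighbours on the plus strand of chromosome 17 (48232768 to 48246924 for Trem1 and 48247777 to 48258841 for Trem3). Neither shared a 50-base transcript stretch with another gene. Trem1 had 507, 711 and 768 counts among the I/R livers and 131, 115 and 54 among the I/R+Rk2 livers. Its CPM were 26.4, 27.7 and 30.6 against 5.50, 3.40 and 3.31. The I/R livers lay close together, and all were several-fold above the I/R+Rk2 livers. The mean fell 6.92-fold, from 28.3 ± 2.14 to 4.07 ± 1.24 CPM (log2 fold change -2.79, SE 0.210, edgeR adjusted p = 0.000296).

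Trem3 had fewer counts, with 45, 51 and 72 counts among the I/R livers and 16, 4 and 0 among the I/R+Rk2 livers. The mean was 2.40 ± 0.442 CPM in the I/R livers and 0.264 ± 0.359 CPM in the I/R+Rk2 livers, where a count of 0 allows up to 0.184 CPM in replicate 3 (3 counts, counting error only). The fold change was -3.12 on the log2 scale with a wide standard error of 0.756 (edgeR adjusted p = 0.0147). The call depended on single livers, since the adjusted p was 0.0505 with I/R replicate 3 left out and 0.0545 with I/R+Rk2 replicate 2 left out. In FPKM, Trem3 reached 0.266-, 0.192- and 0.251-fold of Trem1 among the I/R livers and 0.317-, 0.0974- and 0-fold in the I/R+Rk2 livers, so the groups overlapped (exact two-sided permutation p = 0.4).

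Of the 12 TREM adaptors and signalling genes, 11 were tested (median log2 fold change -1.46). Of these, 5 were past the threshold and lower, beside 11.4% of all genes tested, and none was past it and higher. By the adjusted p alone 7 were lower and 1 higher, beside 23.7% and 20.3% of all genes tested. Tyrobp fell by 1.94 on the log2 scale (edgeR adjusted p = 0.000366), from 34.7 ± 2.37 to 9.05 ± 1.85 CPM. The kinase gene Lyn and the adaptor gene Bcl10 fell with log2 fold changes of -0.82 and -0.79 (adjusted p = 0.000753 and 0.00112), which is under the 2-fold limit. Of the TREM relatives, Treml2 and Treml4 fell with log2 fold changes of -1.62 and -2.29 (adjusted p = 0.00212 and 0.00653). Treml1, which is expressed by platelets, had 6, 8 and 12 counts against 10, 8 and 8, and its log2 fold change of -0.01 (adjusted p = 0.986) had no stable sign under other settings. Trem2, a macrophage receptor, had 21, 5 and 28 counts among the I/R livers and 2, 7 and 3 among the I/R+Rk2 livers and was not tested.

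Mrgpra2b encodes a receptor of the Mas-related G protein-coupled family, a member of a cluster on mouse chromosome 7 (47463806 to 47528862, minus strand). Its family is best known from sensory neurons and mast cells, and Mrgpra2a and Mrgpra2b from neutrophils. The 250 bases before the RefSeq start of Mrgpra2b (chr7:47489583-47489832, minus strand, GRCm38.p6) are shown because this gene had the largest log2 decrease of the set and holds 3 of the TTNNGNAA matches in capitals. This window lies inside the span of Mrgpra2b in GENCODE (47463806 to 47528862). The RefSeq start used here is therefore not the 5' end of that span.
Mrgpra2b: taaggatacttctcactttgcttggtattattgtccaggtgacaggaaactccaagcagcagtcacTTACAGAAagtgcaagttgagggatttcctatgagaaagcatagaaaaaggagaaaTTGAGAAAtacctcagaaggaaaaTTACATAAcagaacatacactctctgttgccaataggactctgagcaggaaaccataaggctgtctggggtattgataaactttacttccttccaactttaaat

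Mrgpra2b had 80, 89 and 112 counts among the I/R livers and 18, 6 and 0 among the I/R+Rk2 livers. Its CPM were 4.17, 3.47 and 4.46 against 0.756, 0.178 and 0. It was present at a similar level in all 3 I/R livers and near the detection floor in I/R+Rk2 replicates 2 and 3. The mean fell 12.3-fold, from 4.03 ± 0.509 to 0.311 ± 0.395 CPM (log2 fold change -3.62, SE 0.693, edgeR adjusted p = 0.00604). The gene shared 81.2% of its 50-base stretches with other genes and 68.2% of its 100-base stretches with Mrgpra2a, so the counts of the pair are uncertain one by one. Mrgpra2a had 66, 80 and 94 counts among the I/R livers and 14, 0 and 0 among the I/R+Rk2 livers. Like Mrgpra2b, Mrgpra2a passed the filter on low counts through the I/R livers. It fell by 4.10 on the log2 scale (edgeR adjusted p = 0.0108, and 0.0698 in DESeq2). With the pair summed, an alternative chosen after seeing the data, the pair stood at -3.83 on the log2 scale (edgeR adjusted p = 0.00759). Of the other 2 family members with counts, Mrgpre had a log2 fold change of 0.89 (adjusted p = 0.201) and Mrgprf had at most 5 counts in any liver.

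Hcar2 encodes the G protein-coupled receptor for nicotinic acid and the ketone body beta-hydroxybutyrate. It is a single-exon gene on the minus strand of chromosome 5 (123863570 to 123865499), and none of its 50-base stretches was shared. It had the most counts of the members in the I/R livers, with 1041, 1130 and 1330 among the I/R livers and 368, 286 and 101 among the I/R+Rk2 livers. In CPM these were 54.2, 44.1 and 53.0 against 15.5, 8.46 and 6.20. All I/R livers stood well above all I/R+Rk2 livers. The mean fell 4.99-fold, from 50.4 ± 5.54 to 10.04 ± 4.83 CPM (log2 fold change -2.32, SE 0.308, edgeR adjusted p = 0.00162).

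Of the 6 listed receptors for other metabolites, 4 had counts and 2 were tested, and these went in opposite directions. Sucnr1, the succinate receptor, had 9.69, 14.6 and 11.6 CPM in the I/R livers and 33.5, 36.3 and 37.1 CPM in the I/R+Rk2 livers. It rose by 1.57 on the log2 scale (edgeR adjusted p = 0.000639). Gpr84, a receptor for medium-chain fatty acids on myeloid cells, had a log2 fold change of -1.24 that did not pass (adjusted p = 0.0646), although every I/R liver was above every I/R+Rk2 liver. Ffar2, a short-chain fatty acid receptor, had 5, 4 and 7 counts among the I/R livers and none in the I/R+Rk2 livers, and Hcar1, the lactate receptor, had 2 counts in all.

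Slfn4 belongs to the Schlafen genes, a family that regulates proliferation and differentiation of immune cells, and lies on the plus strand of chromosome 11 (83175186 to 83190216). The 250 bases before its RefSeq start (chr11:83174936-83175185, plus strand, GRCm38.p6) are shown because Slfn4 had the smallest p-value of the set. Of the 7 member promoters analysed, that of Slfn4 alone held TGANTCA, the AP-1 motif, which is in capitals with TATAAA and TTNNGNAA.
Slfn4: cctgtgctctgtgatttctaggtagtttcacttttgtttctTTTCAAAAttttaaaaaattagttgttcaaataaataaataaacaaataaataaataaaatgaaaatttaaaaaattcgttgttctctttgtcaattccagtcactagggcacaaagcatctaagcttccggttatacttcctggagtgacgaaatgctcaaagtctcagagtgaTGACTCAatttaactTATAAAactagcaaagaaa

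Slfn4 had 538, 513 and 745 counts among the I/R livers and 67, 77 and 39 among the I/R+Rk2 livers, or 28.0, 20.01 and 29.7 CPM against 2.82, 2.28 and 2.39 CPM. The I/R+Rk2 livers agreed closely, unlike those for most other members. The mean fell 10.4-fold, from 25.9 ± 5.17 to 2.50 ± 0.282 CPM (log2 fold change -3.37, SE 0.196, edgeR adjusted p = 0.000237), and its p-value ranked 20 among the 12411 genes tested. Slfn4 shared 11.3% of its 50-base stretches with relatives but 0.271% of its 100-base stretches.

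The Schlafen relatives were lower too, with 5 of the 6 tested past the threshold, beside 11.4% of all genes tested (median log2 fold change -2.53). Slfn1, Slfn2, Slfn3 and Slfn8 fell with log2 fold changes of -2.79, -2.41, -2.64 and -2.80, and Slfn5 with -1.19 (edgeR adjusted p from 0.000787 for Slfn2 to 0.00162 for Slfn8). Slfn2 stood at 36.5 ± 4.59 CPM in the I/R livers and 6.84 ± 2.60 CPM in the I/R+Rk2 livers. Slfn9 had a log2 fold change of -0.86 and did not pass (adjusted p = 0.263).

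Stfa2l1 encodes a stefin-like protein of the cystatin family, whose members inhibit cysteine proteases such as cathepsins. It lies in a cluster of stefin genes on the plus strand of chromosome 16 (36156811 to 36161953). It had 57, 65 and 68 counts among the I/R livers and 31, 20 and 9 among the I/R+Rk2 livers, or 2.97, 2.54 and 2.71 CPM against 1.303, 0.592 and 0.552 CPM. The groups did not overlap. The mean fell 3.32-fold, from 2.74 ± 0.219 to 0.816 ± 0.422 CPM (log2 fold change -1.73, SE 0.357, edgeR adjusted p = 0.00791), which was the smallest decrease among the 8 members that passed.

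Stfa2l1 shared 24.6% of its 50-base stretches with Stfa2 and Gm49652, and none of 100 bases. Its neighbours in the cluster had still fewer counts in the I/R+Rk2 livers. Stfa2 had 8, 9 and 10 counts among the I/R livers and none in the I/R+Rk2 livers, which makes it at least 2.92-fold lower when 3 counts per library are taken as the floor. The stefin gene 2010005H15Rik had 18, 15 and 14 counts against none, at least 5.22-fold lower by the same floor (edgeR adjusted p = 0.00341). That gene passed the filter on low counts through the I/R livers alone. Gm5483 had 73, 67 and 94 counts against 12, 10 and 5 and fell by 3.18 on the log2 scale (adjusted p = 0.000673). With the counts of Stfa2l1 and the chromosome 16 stefins summed, an alternative chosen after seeing the data, the sum stood at -2.68 on the log2 scale (edgeR adjusted p = 0.00113). Cstb, the stefin B gene of most cell types, fell by 0.47 (adjusted p = 0.00508), under the 2-fold limit.

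Retnlg encodes resistin-like gamma, a secreted protein made by cells of the granulocyte lineage, and lies on the plus strand of chromosome 16 (48872621 to 48874496). Its upstream 250 bases (chr16:48872358-48872607, plus strand, GRCm38.p6) are shown beside the others as those of the member that did not pass. They hold 1 TTNNGNAA match, in capitals, at the far end of the window.
Retnlg: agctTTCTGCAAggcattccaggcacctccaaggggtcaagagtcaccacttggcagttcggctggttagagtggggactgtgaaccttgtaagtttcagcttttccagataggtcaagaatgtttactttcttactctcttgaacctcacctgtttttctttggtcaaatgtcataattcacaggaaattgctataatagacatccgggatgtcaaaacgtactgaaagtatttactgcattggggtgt

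Retnlg had 841, 738 and 1055 counts among the I/R livers and 713, 487 and 148 among the I/R+Rk2 livers. In CPM these were 43.8, 28.8 and 42.0 against 29.96, 14.4 and 9.09. I/R+Rk2 replicate 1 lay above I/R replicate 2, and the other I/R+Rk2 livers lay below every I/R liver. The means were 38.2 ± 8.21 and 17.8 ± 10.8 CPM, with a log2 fold change of -1.09 and an SE of 0.403 that did not pass (edgeR adjusted p = 0.0620). With I/R+Rk2 replicate 1, the highest of its group, left out it passed, at -1.69 on the log2 scale with an edgeR adjusted p of 0.00420. It did not pass with any other liver left out. Its relative Retn, the adipocyte resistin gene, had 5 counts in 1 liver.

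Retnlg was also the most abundant member per length of transcript. Its FPKM were 77.1, 45.4 and 65.8 among the I/R livers and 45.1, 21.0 and 12.9 among the I/R+Rk2 livers. Hcar2 came next with 30.0, 21.9 and 26.1 FPKM against 7.33, 3.88 and 2.74, and Trem1 had 9.44, 9.82 and 10.8 FPKM against 1.95, 1.09 and 0.951. Trem1 was the third most abundant member in every I/R liver, whereas Stfa2l1 was above it in every I/R+Rk2 liver, with 2.81, 1.23 and 1.09 FPKM. Retnlg made up 43.5% to 51.2% of the FPKM summed over the 9 members in the I/R livers and 66.8% to 72.3% in the I/R+Rk2 livers. Of the remaining members, Fpr1, Fpr2, Slfn4 and Stfa2l1 lay between 4.52 and 8.25 FPKM in the I/R livers, and Mrgpra2b and Trem3 between 1.89 and 3.52.

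The members were also set against S100a8 and S100a9, which encode abundant calcium-binding proteins of neutrophils and, at lower levels, of monocytes. Each member's FPKM was divided by the summed FPKM of both genes in the same liver and expressed per 1000. Slfn4 stood at 10.1, 8.79 and 11.4 in the I/R livers and at 2.74, 4.13 and 5.23 among the I/R+Rk2 livers. Mrgpra2b stood at 4.38, 4.56 and 4.62 against 2.24, 1.002 and 0. For both genes the groups were separate, with the I/R livers higher, and the same held for Fpr2, Trem1, Trem3 and Hcar2. Trem1 had means of 14.6 ± 2.75 and 8.88 ± 0.780, and Hcar2 had means of 37.3 ± 1.25 and 30.04 ± 1.81.

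For Retnlg the I/R+Rk2 livers were the higher ones. It stood at 95.9, 79.7 and 90.5 in the I/R livers and at 189, 170 and 131 among the I/R+Rk2 livers, which was 1.84-fold higher in the mean (88.7 ± 8.28 against 164 ± 29.4). Fpr1 (5.84, 7.93 and 9.16 against 7.77, 5.89 and 6.86) and Stfa2l1 (9.50, 10.2 and 8.50 against 11.8, 9.94 and 11.1) overlapped between the groups. Each of the 7 ratios whose groups were separate had an exact two-sided permutation p = 0.1, the smallest possible here, and an adjusted value of 0.13 over the 13 ratios. By the same exact permutation test Fpr1 and Stfa2l1 had p = 0.5 and 0.2. None of the ratios can therefore be called different by this test, and their separation is a description of these 6 livers.

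**Figure D2:**
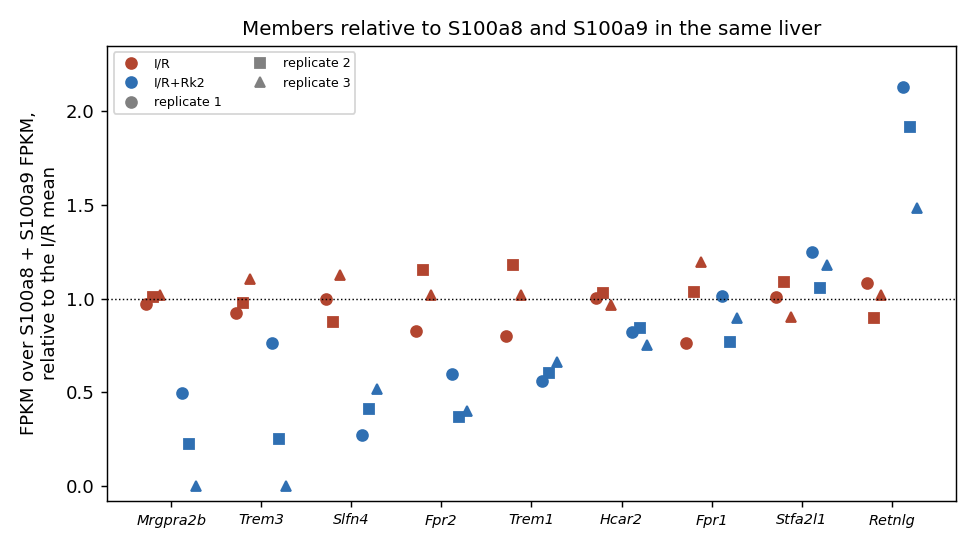
FPKM of each member divided by the FPKM of S100a8 and S100a9 in the same liver, relative to the mean of the 3 I/R livers (dotted line at 1). Points are single livers, in red for I/R and in blue for I/R+Rk2. Mrgpra2b, Trem3, Slfn4, Fpr2, Trem1 and Hcar2 lie below the I/R livers in all 3 I/R+Rk2 livers, Retnlg lies above them in all 3, and Fpr1 and Stfa2l1 overlap.

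The I/R+Rk2 livers differed among themselves in a way that most members shared. I/R+Rk2 replicate 1 was the highest of its group in CPM for 9 of 9 members and replicate 3 the lowest for 8 of 9. The share of all genes with this order was not counted, so the order cannot be called particular to the members. Replicate 1 exceeded replicate 3 by 3.30-fold for Retnlg, 3.12-fold for Fpr2, 2.58-fold for Fpr1, 2.49-fold for Hcar2 and 2.36-fold for Stfa2l1, but by 1.18-fold for Slfn4. The same liver was the highest of its group for S100a8 and S100a9, at 59.2 and 71.1 CPM. Summed over the members, the I/R livers held 142 to 184 CPM and the I/R+Rk2 livers 23.1 to 60.9 CPM.

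Since I/R+Rk2 replicate 1 was the highest of its group for all 9 members, larger decreases followed from leaving it out. All 9 were then past the threshold in edgeR. The log2 fold change became -5.08 for Mrgpra2b, -4.88 for Trem3, -3.82 for Fpr2 and -3.48 for Slfn4. For Trem1, Hcar2, Fpr1 and Stfa2l1 it became -3.08, -2.77, -2.74 and -2.25. Slfn4 was the member that this liver moved least. The part of this liver's higher values in the group difference was not tested beyond these fits.

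**Figure D3:**
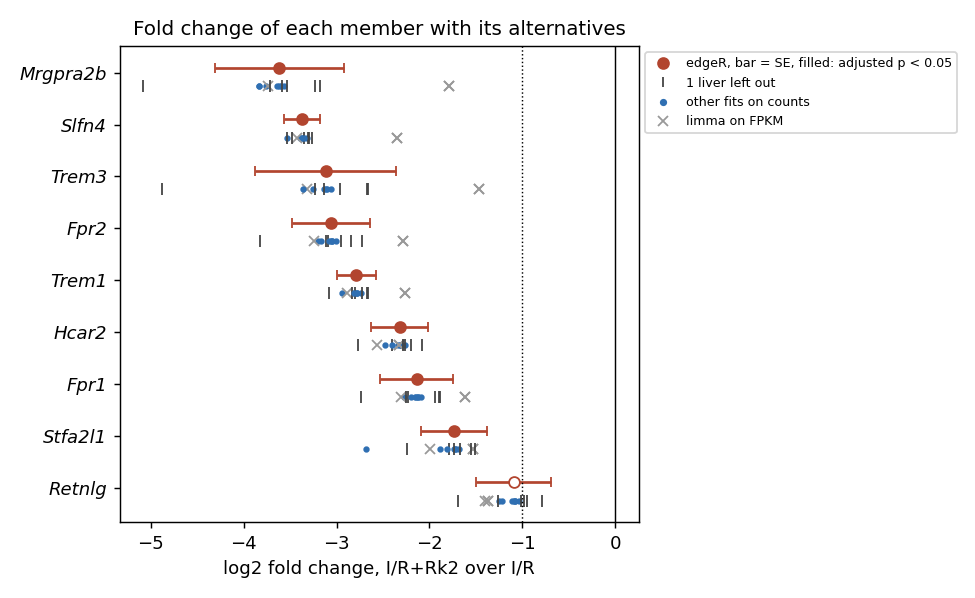
Log2 fold change of each member, I/R+Rk2 over I/R, from edgeR (circle with its SE, filled where the adjusted p is below 0.05) and, below it, from the alternative fits. Vertical ticks leave out 1 liver, blue dots are other fits on counts, including summed copies, and grey crosses are limma fits on FPKM. The dotted line marks a 2-fold decrease. All values lie below 0, and those of Trem3 spread most, from -4.88 to -1.47.

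Other genes whose profile over the 6 livers was closest to that of the members were sought by the root mean square difference of centred log2(CPM + 1) values from the members' mean profile, among 11379 candidates with a median distance of 1.02. The nearest were Mrgpra2a (0.0637), Tlr13 (0.0850), Coro1a (0.0896), Hk3 (0.0994) and S100a9 (0.10). Tlr13 is an endosomal sensor of bacterial RNA, Coro1a an actin-binding protein of leukocytes and Hk3 a myeloid hexokinase. Mrgpra2b lay closest to the mean among the members (0.0384) and Slfn4 farthest (0.540). The added 1 shrinks changes of genes with low CPM, so these distances do not follow the fold changes, of which that of Mrgpra2b was the largest. Mrgpra2b shared 68.2% of its 100-base stretches with Mrgpra2a, so this nearest gene is not independent of the members.

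The decrease extended over neutrophil genes outside the set. Lists of such genes, chosen with earlier results of these data known, were counted without a set test. Of 25 other neutrophil surface genes, 24 were tested and 23 were past the threshold and lower, with a median log2 fold change of -2.39. Cd33 and Pirb, inhibitory receptors of myeloid cells, fell with log2 fold changes of -2.97 and -3.17, and Clec4e, a C-type lectin that senses dead cells, with -3.10 (edgeR adjusted p = 0.000240 for each). The chemokine receptor Cxcr2, the G-CSF receptor Csf3r and Ly6g fell with log2 fold changes of -2.30, -2.19 and -1.82 (adjusted p = 0.00596, 0.00101 and 0.0107). The single entry of this list that was tested and did not pass was Mrvi1, with a log2 fold change of 0.88 (adjusted p = 0.0725).

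Granule genes were divided. Of 12, 9 had counts, 7 were tested and 5 were past the threshold and lower (median log2 fold change -2.22). Lcn2, which injured hepatocytes also express, fell by 3.70 on the log2 scale. Chil3, which monocytes also express, fell by 4.36, and the collagenase gene Mmp8 fell by 2.22 (for the 3 genes, edgeR adjusted p = 0.000240, 0.000537 and 0.000988). Mmp9, the gelatinase gene, fell by 1.14 (adjusted p = 0.0310). Ngp and Prtn3, which are typical of maturing neutrophils, had log2 fold changes of -0.32 and -1.24 and did not pass (adjusted p = 0.576 and 0.106).

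Of 16 cytosolic and secreted neutrophil genes, 10 were past the threshold and lower and 1 was past it and higher (median log2 fold change -1.84). Il1b, Wfdc17 and Il1f9 fell with log2 fold changes of -3.13, -2.46 and -3.48 (edgeR adjusted p = 0.000568, 0.000625 and 0.00101). The gene past it and higher was Cebpe, a transcription factor of granulocyte maturation, which rose by 1.08 (adjusted p = 0.00804). It was not the only gene of the list to rise, since 13 were lower and 3 higher. By the adjusted p alone 10 were lower and 2 higher, beside 23.7% and 20.3% of all genes tested. Of 12 signals that recruit neutrophils, 10 were tested and all 10 were past the threshold and lower. Among them the chemokine genes Cxcl5 and Cxcl3 fell with log2 fold changes of -5.03 and -3.72 and the endothelial adhesion gene Icam1 with -1.09 (adjusted p = 0.000355, 0.000445 and 0.000834).

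**Figure D4:**
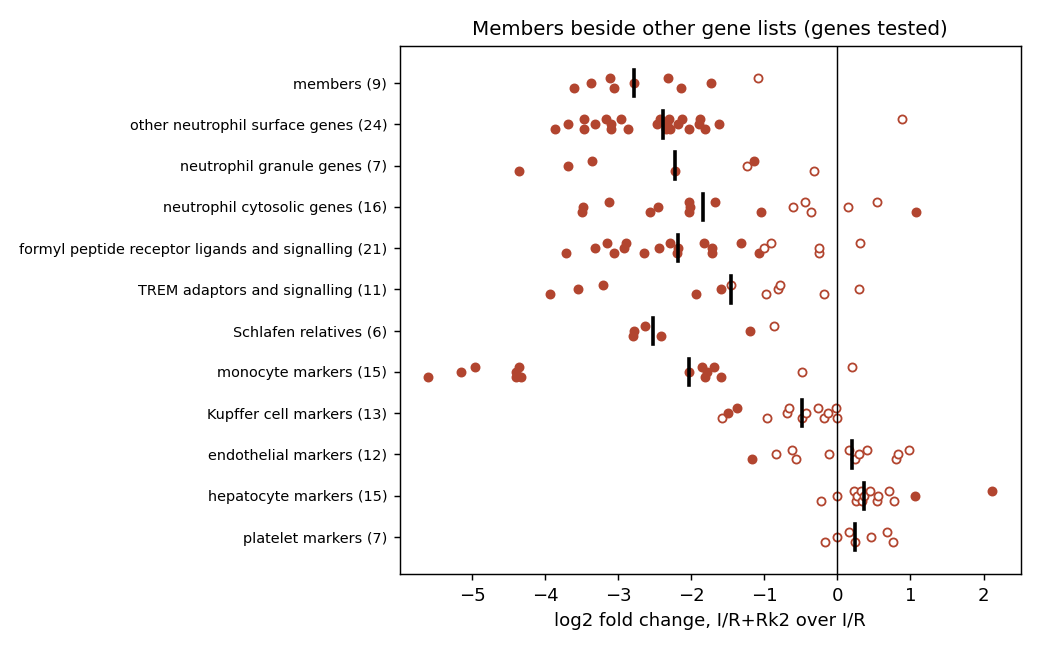
Log2 fold change, I/R+Rk2 over I/R, of the tested genes of each list (circles, filled past the threshold) with the median of the list (black line) and the number of genes tested in brackets. The members (median -2.79) lie with the other neutrophil surface genes (-2.39), the Schlafen relatives (-2.53) and the monocyte markers (-2.04). The hepatocyte, endothelial and platelet markers have medians of 0.36, 0.20 and 0.25.

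Markers of other cells moved with the members in part. Of 15 monocyte markers, 13 were past the threshold and lower. The summed level of the list was 1794 to 2150 CPM in the I/R livers and 1202 to 1263 CPM in the I/R+Rk2 livers. This sum is weighted by the most abundant genes of the list and cannot be read as the level of monocyte RNA. The markers named next had means of 14.2 to 26.7 CPM in the I/R livers, a small part of it. Ccr2, Vcan and Ms4a6c fell with log2 fold changes of -4.41, -5.61 and -4.33 (edgeR adjusted p = 0.000131, 0.000212 and 0.000212). The median of the list was -2.04 on the log2 scale. Monocytes also express several members, and their part in the members' decrease was not tested. Of 13 Kupffer cell markers, all 13 were lower and 2, Csf1r and Cd163, were past the threshold (median log2 fold change -0.49). Csf1r, which monocytes express too, fell by 1.50 and Cd163 fell by 1.38 (adjusted p = 0.000506 and 0.00357). Clec4f, which defines Kupffer cells, had a log2 fold change of -0.13 (adjusted p = 0.474).

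Hepatocyte markers were mostly higher, in 13 of 15, with G6pc and Ttr past the threshold (log2 fold changes 2.12 and 1.06, edgeR adjusted p = 0.000593 and 0.00132) and a median of 0.36. By the adjusted p alone 9 were higher and 0 lower. Their summed level was 78670 to 90653 CPM in the I/R livers and 114781 to 141536 CPM in the I/R+Rk2 livers. The part of this shift in the members' lower CPM was not tested. Of 12 endothelial markers, 7 were higher and 5 lower, with 4 in each direction at an adjusted p below 0.05, and the median was 0.20. Cdh5, past the threshold, fell by 1.17 on the log2 scale (adjusted p = 0.00249). Lyve1 fell by 0.84 and Clec4g rose by 0.97, both under the 2-fold limit (adjusted p = 0.00107 and 0.00134). Of 7 platelet markers tested, none was past it (median 0.25). T and NK cell, B cell, and eosinophil, basophil and mast cell lists had 1, 0 and 1 genes with enough counts for a test, and these were Cd4 (log2 fold change 1.06, adjusted p = 0.233) and Kit (log2 fold change -0.77, adjusted p = 0.0261, which was above 0.05 when any of 4 livers was left out).

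Promoter sequences were available here for 7 of the 9 members in the RefSeq table of GRCm38.p6, all except Trem3 and Hcar2. In windows from 250 bases before to 50 bases after the start, searched on both strands, TTNNGNAA was found in 7 of 7 members, beside 40.7% of all 32851 promoters. The window of Mrgpra2b lies inside the span of that gene in GENCODE. TATAAA was found in 3 of 7 members (Fpr1, Fpr2 and Slfn4), beside 13.6% of all promoters, and TGANTCA in 1 of 7, beside 7.81%. GAGGAAG, a core of PU.1 sites, was found in 0 of 7 (13.6% of all promoters), and the NF-kappaB motif in 0 of 7 (5.56%). The 17 matches in the member promoters did not overlap each other. In Slfn4 the TATAAA match lay at bases -19 to -14 and the TGANTCA match at -34 to -28 from the start, whereas TATAAA lay at -227 to -222 in Fpr1 and at -130 to -125 in Fpr2. A match describes the letters and is not evidence of binding, and no binding was measured in these livers.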

How the data were processed

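Liver RNA (250 ng per mouse) had been sequenced from 3 I/R and 3 I/R+Rk2 mice with an MGI kit. Per the submitters' processing notes, reads were checked with FastQC 0.11.5, aligned to mm10 with HISAT2 2.2.1 and summarised with StringTie 1.3.3. The authors deposited whole-number counts per gene, not normalised, and FPKM per gene. The annotation, the strand setting and the step that gave whole numbers are not given in the sources used here, so reads of overlapping or near-identical genes may have been divided, and the lowest counts are uncertain. A column of summed counts was not used, and 0 columns of per-liver values were left out.

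Counts were fitted with edgeR 4.0.16 in R 4.3.3, with default filterByExpr, TMM scaling and the quasi-likelihood F test over all 6 livers without covariates, with Benjamini-Hochberg adjustment over all 12411 genes tested. The standard error is the absolute log2 fold change over the square root of F. The study used DESeq2, which was run as an alternative (1.42.0), as was limma 3.58.1 on log2(FPKM + 1) and log2(FPKM + 0.1). Other scalings and filters, leaving out each liver and a replicate block were also tried. The scripts were tested on simulated data. Libraries of a group differed by far more than counting noise (chi-square per degree of freedom 31.4 to 74.8). Since the labels give a number per mouse and no batch, p-values measure the spread between these livers. The smallest countable level, 3 counts, was 0.0888 to 0.184 CPM, which covers counting error only.

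The members and gene lists were chosen with earlier results of these data known. Genes named were the 9 members, every listed relative with a count, the 3 tested genes with the smallest p of every other list and the 5 genes nearest in profile, except 1 that is not reported here. Genes named beyond this rule (Alb, S100a8, Ly6g, Mpo, Ctsg, Camp, Elane, Anxa1, Gnai2, Gnai3, Gnb2, Cxcr2, Csf3r, Mmp9, Ngp, Prtn3, Clec4f, Mrvi1 and Cebpe) are markers or exceptions, named after their values were seen.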

Additional observations from a re-analysis of the deposited data

How the results depend on the processing

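The 9 members were lower in I/R+Rk2 livers under every alternative that could be fitted. Genes past the threshold numbered 1813 with edgeR, 901 with limma on log2(FPKM + 1), 921 with the same and no filter, and 1543 to 2012 when a liver was left out. Decreases made up 78.3% of calls with edgeR, 87.9% by library size alone, which shifted the median of all genes to -0.17, and 88.8% to 91.1% with limma. Members past the threshold numbered 8 of 9 with edgeR, 7 to 9 when a liver was left out, and 4 of the 5 that had at least 10 counts in every library. Fpr2, Trem3, Stfa2l1 and Mrgpra2b did not pass that filter and have no value under it. The median of the members was -1.79 in both limma fits with a pseudocount of 1, which understates changes of low genes. Retnlg was past the threshold at -1.25 by library size alone (adjusted p = 0.0434), -1.08 in DESeq2 (0.0133), and -1.37 and -1.41 in limma with a mean FPKM of at least 1 and pseudocounts of 1 and 0.1 (0.0249 and 0.0280), and ranged from -1.69 to -0.78 when a liver was left out. Trem3 ranged from -4.88 to -2.66 when a liver was left out. The log2 fold change of Treml1, which had few counts, turned sign to 0.0406 with upper-quartile factors, 0.00745 without a filter and 0.0338 in DESeq2, and ranged from -0.196 to 0.289 when a liver was left out. The endothelial median turned to -0.103 in both limma fits with a pseudocount of 1 and to -0.133 with 0.1. Mrgpra2a had an adjusted p of 0.0698 in DESeq2. The causes were not tested.

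The replicate numbers of the 2 groups did not pair the livers: deviations from the group means of same-numbered livers had correlations of -0.0313, 0.0477 and -0.0243. With the replicate block 1690 genes and 9 of 9 members were past the threshold, Retnlg was at -1.22 (edgeR adjusted p = 0.0409) and Treml1 at 0.0195. Depth limits Trem3, Mrgpra2b, Stfa2l1 and Fpr2 most, which had under 10 counts in some I/R+Rk2 liver.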
